A study of Mus musculus with 7 samples.

Results

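Myogenic transcription factors and progenitor markers were followed across muscle fibers of fetal mice with and without a functional *Lama2* gene. The set holds 10 genes, namely the paired-box factors *Pax3* and *Pax7*, the myogenic regulatory factors (MRFs) *Myf5*, *Myod1*, *Myog* and *Myf6*, the MEF2 factors *Mef2a* and *Mef2c*, the repressor *Msc* and the adhesion gene *Cdh15*. They were found by symbol among the 31531 genes of the table of normalized counts, and all 10 were present and passed the filter on low values (a mean normalized count of at least 5). RNA was measured in 4 WT and 3 dyW libraries, 1 per fetus, at E17.5. By their labels and the study's methods, the dyW fetuses were homozygous for the dyW allele, a disruption of *Lama2* (the gene for the laminin-α2 chain) on the C57BL/6 background that serves as a mouse model of LAMA2-CMD, and came from crosses of heterozygous mice. Fibers were freed with dispase and collagenase from the epaxial muscles, which run along the back, and were retained on a strainer. Full-length cDNA was amplified by SMART-seq2 without molecular identifiers, so limits derived from read numbers cover counting error only.

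PAX3 and PAX7 mark the progenitors from which fetal muscle grows, and PAX7 continues to mark the satellite cells that settle beneath the basement membrane of the fiber. MYF5 and MYOD1 are basic helix-loop-helix factors that commit progenitors to the muscle lineage, myogenin (the product of *Myog*) drives the differentiation of myoblasts into fused fibers, and MRF4 (the product of *Myf6*) acts both early and late in the lineage. These factors bind the E-box, a short motif, together with E proteins, and the MEF2 factors act with them on muscle promoters. Musculin (the product of *Msc*) is a related helix-loop-helix protein that represses E-box targets, and M-cadherin (the product of *Cdh15*) joins myoblasts and satellite cells to fibers.

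*Myf5* (chr10:107318769-107321995, minus strand) and *Myf6* (chr10:107328712-107330656, minus strand) lie side by side in GRCm39. *Myog* (chr1:134217707-134220287) and *Cdh15* (chr8:123574705-123596048) are on the plus strand. RefSeq promoters, which span 250 bases before to 50 after the RefSeq start of a gene, were available for 6 of the 10 genes, and those of *Myog* and *Cdh15* are shown because the data below follow an E-box binding family and these are the member promoters with the motif close to the start. E-boxes (CANNTG, the same on both strands) are in capitals. The *Myog* window (chr1:134217492-134217791, plus strand, GRCm39) held 2, the first bases of which are at -138 and -12 from the start. The *Cdh15* window (chr8:123574863-123575162, plus strand, GRCm39) held 4, at -236, -135, -32 and -2. The RefSeq start lies 35 bases downstream of the GENCODE gene start for *Myog* and 408 bases downstream for *Cdh15*, so the latter window lies within the gene as given above.
Myog: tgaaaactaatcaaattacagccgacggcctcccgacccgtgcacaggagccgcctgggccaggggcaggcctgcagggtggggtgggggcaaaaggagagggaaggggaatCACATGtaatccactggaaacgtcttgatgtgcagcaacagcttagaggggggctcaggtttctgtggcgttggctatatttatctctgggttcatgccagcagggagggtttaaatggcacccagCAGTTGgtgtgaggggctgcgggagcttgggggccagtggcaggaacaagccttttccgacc
Cdh15: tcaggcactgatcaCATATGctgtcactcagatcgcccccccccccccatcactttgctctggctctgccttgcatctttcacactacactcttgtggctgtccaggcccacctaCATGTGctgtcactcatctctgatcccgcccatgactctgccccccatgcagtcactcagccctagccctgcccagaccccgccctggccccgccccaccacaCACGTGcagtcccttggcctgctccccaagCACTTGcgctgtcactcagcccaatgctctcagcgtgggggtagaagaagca
At least 1 E-box was present in 72.3% of all 32851 promoters of the same length, at least 2 in 39.6% and at least 4 in 6.49%, and none was found in the windows of *Myf5*, *Pax7* and *Mef2a*. Of the 3 windows of *Mef2c*, 1 held 2 E-boxes (at -234 and -100), 1 held 1 (at -245) and 1 held 0. A match describes these letters and not a bound site.

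The libraries differed in depth and in the tissue they held, and this touches every value given for the 10 genes. Reads counted on genes ranged from 470804 to 2220813 in WT and from 3663905 to 18297106 in dyW. The value of 1 read therefore ranged from 2.05 to 5.33 normalized counts in WT and from 0.0974 to 0.488 in dyW, and a count of 0 (which allows up to 3 reads) allows up to 15.99 normalized counts in WT1 against 0.292 in dyW1. Despite their depth, fewer genes had a read in the dyW libraries (14209 to 19360) than in WT (25530 to 29594), and fewer of the 1330 odorant and vomeronasal receptor genes did (128 to 755 against 1040 to 1300). The 18 myofiber markers, such as *Acta1* and *Myh3*, summed to 3023 normalized counts in WT1 and 1103 in dyW1, below the 7889 to 84470 of the other libraries, and 8 of the 18 were at 0 in dyW1, among them *Ckm*, *Des* and *Myh3*. WT1 held instead 426120 normalized counts of the 6 cartilage markers, which include *Col2a1*, against 17.2 to 9073 elsewhere. dyW1 held 101245 normalized counts of 6 bone genes (a list chosen after the values were seen, led by *Spp1*), against 0.253 to 16817 elsewhere. The 8 fibroblast markers summed to between 4180 and 14753 in WT and between 21953 and 32631 in dyW, without overlap. In dyW1 most of this sum was from *Col1a1* (8467) and *Col1a2* (12046), which with *Pdgfra* (280) lay above every WT library. *Col3a1* (232) and *Thy1* (1.85) lay below every WT library there, and *Dcn*, *Lum* and *Postn* were within the WT range. *Lama2* itself ranged from 90.6 to 110.6 normalized counts in WT and was 4.29 in dyW1 and 6.07 in dyW2, but 139.7 in the library labelled dyW3, so that its difference was not called (log2 fold change -2.58, adjusted P-value 0.103 in limma). The level in dyW3 was above the WT range, unlike those of dyW1 and dyW2. A gene count does not show which allele was read, so the genotype of dyW3 was not tested. Its label is kept here as given and is in doubt, and dyW3 stands below for the library so labelled. Results are therefore also given without WT1 and dyW1, and the main ones without dyW3.

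**Figure D1:**
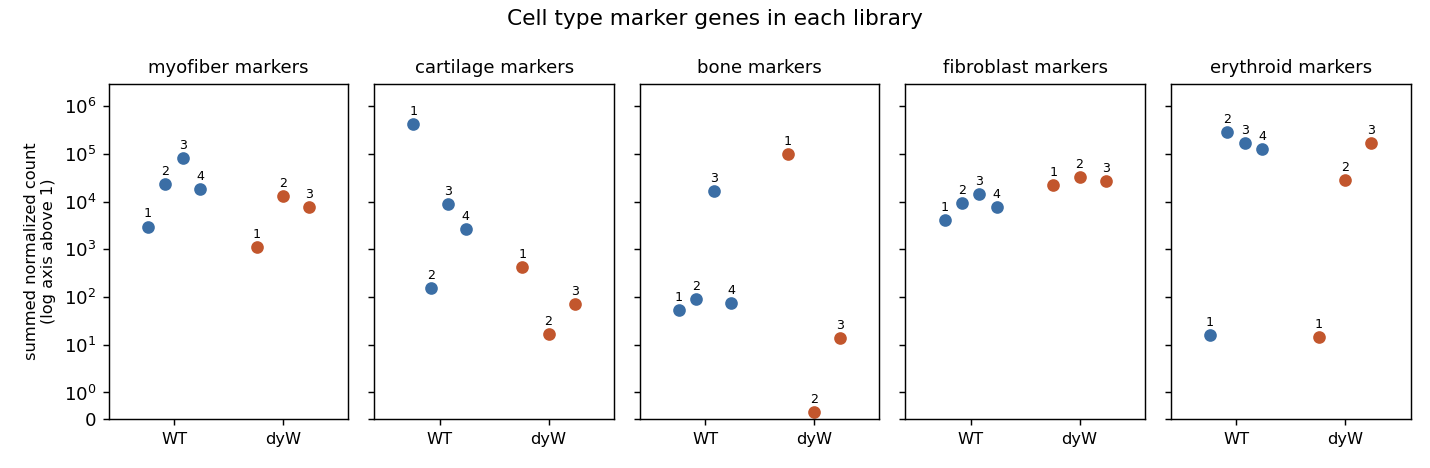
Summed normalized counts of 5 lists of marker genes in each library, on an axis that is logarithmic above 1. Each point is 1 library, numbered as in its label (WT in blue, dyW in orange); WT1 and dyW1 have the lowest myofiber and erythroid sums, and WT1 and dyW1 the highest cartilage and bone sums, respectively.

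None of the 10 genes was called lower or higher in dyW fibers, where called means that limma on log2(normalized count + 1), adjusted over all 25791 genes tested, gave an adjusted P-value under 0.01 with a log2 fold change beyond 1.5 in either direction. In the same fit, 18.7% of all genes were called lower and 0.0659% higher. At the looser threshold of 0.05 with a log2 fold change beyond 1, *Msc* was lower and no member was higher, against 29.6% lower and 1.01% higher of all genes. *Msc* was also the only 1 of the 10 with an unadjusted P-value under 0.05, which 41.5% of all genes reached on the lower side and 2.81% on the higher. Voom on the recovered reads called 0 members in either direction, against 20.6% of all genes lower and 0.264% higher. The median log2 fold change of the 10 genes was -1.23 and that of all genes -1.99, and with the libraries scaled to the same total these medians were -0.43 and -1.24. Values are best read beside this shift, which depended on level. Over the 6111 genes with a mean of at least 50 the median was 0.20. Of these, 536 were lower and 717 higher at an unadjusted P-value under 0.05. *Myog*, *Mef2a* and *Mef2c* are among them, so the shift of all genes does not serve as their background. With quantile normalization the median of all genes was 0.06 and that of the 10 genes 0.47. Because of the added 1, low genes show smaller fold changes on this scale than their counts do.

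**Figure D2:**
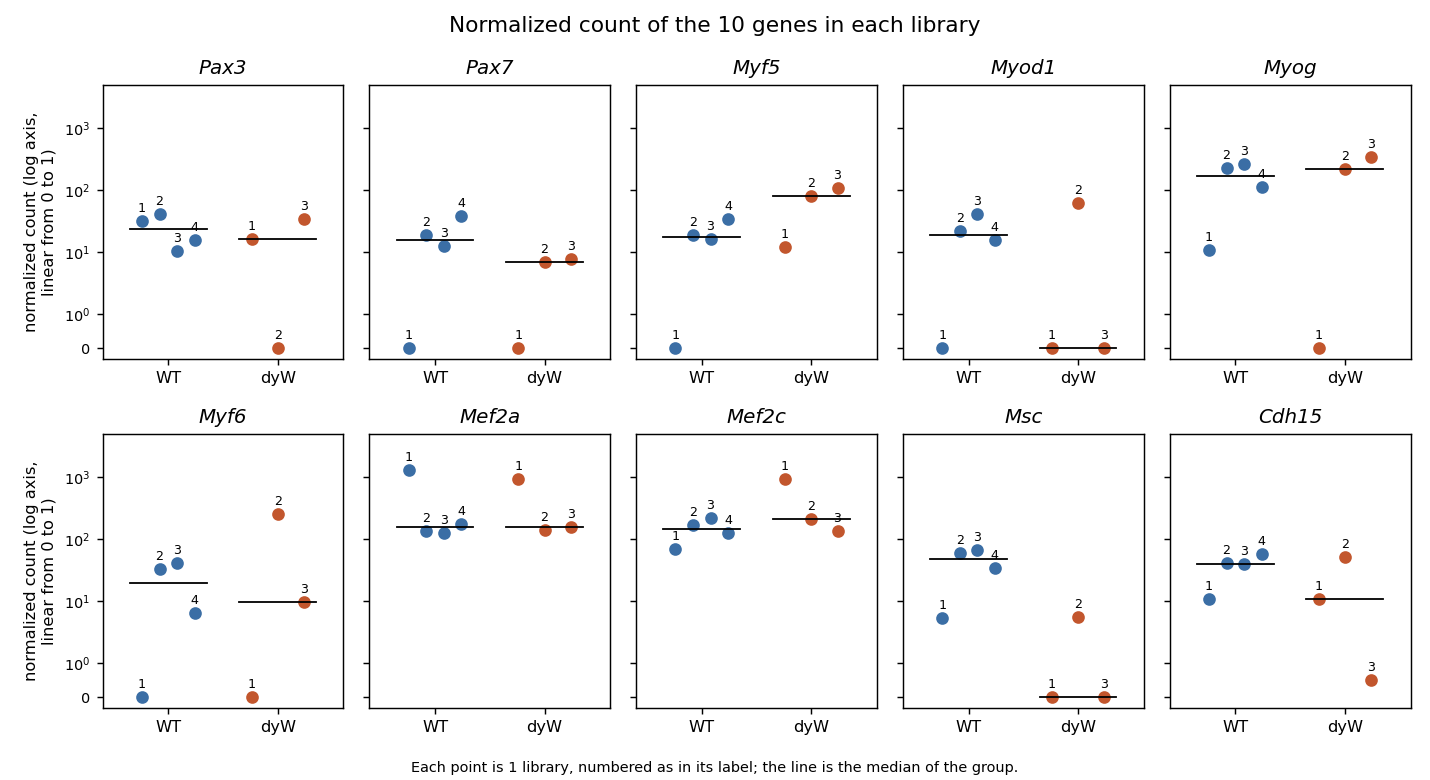
Normalized count of each of the 10 genes in the 4 WT (blue) and 3 dyW (orange) libraries, with the replicate number beside each point and the group median as a line, on an axis that is logarithmic above 1. WT1 is the lowest WT library for *Pax7* and the MRFs and the highest for *Mef2a*, and the *Msc* values of dyW1 and dyW3 are at 0.

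The normalized counts of the 2 groups overlapped for all 10 genes, whereas 31.5% of all genes were lower in every dyW library than in any WT library and 3.28% were higher. Without WT1 and dyW1, *Msc* and *Pax7* were lower and *Myf5* was higher without overlap, against 44.8% and 7.46% of all genes. With 4 libraries against 3 an exact permutation test cannot give a P-value below 0.0571, and with 3 against 2 not below 0.2. In bulk libraries such as these, fewer cells of a type and less RNA per cell cannot be told apart.

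**Figure D3:**
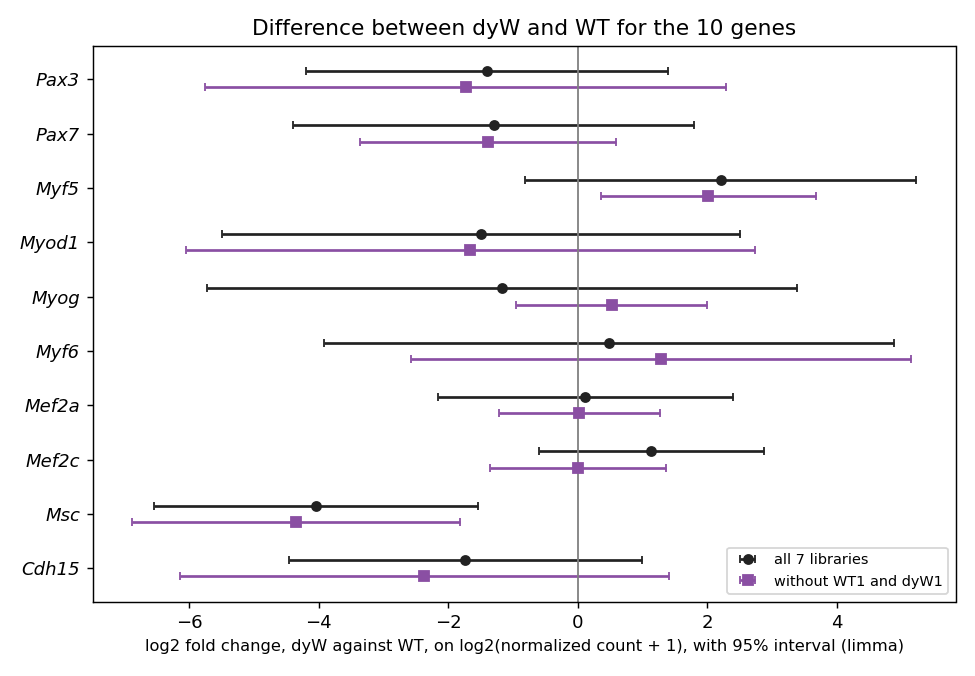
Log2 fold change of dyW against WT for each gene with its 95% interval from limma, with all 7 libraries (black circles) and without WT1 and dyW1 (purple squares). With all libraries the interval of *Msc* (-6.54 to -1.54) is the only one that excludes 0; without WT1 and dyW1 that of *Myf5* (0.36 to 3.69) does too.

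The progenitor factors were at low levels in both groups. *Pax3* was at 32.0, 40.5, 10.3 and 15.7 normalized counts in WT1 to WT4 and at 16.5, 0 and 34.7 in dyW1 to dyW3. The groups overlapped, with dyW2 at 0 although it was the most deeply sequenced library (0 of its reads, which allows up to 0.379 normalized counts). The difference was a log2 fold change of -1.40 (SE 1.23, 95% interval -4.19 to 1.39, adjusted P-value 0.412). *Pax7* was at 0, 18.9, 12.3 and 37.8 normalized counts in WT1 to WT4 and at 0, 6.83 and 7.81 in dyW1 to dyW3. Both libraries at 0 were those poor in myofiber markers, and among the other 5 the dyW values lay below all WT values. Its log2 fold change was -1.29 with all libraries (SE 1.37, adjusted P-value 0.495) and -1.39 without WT1 and dyW1 (SE 0.80, adjusted P-value 0.251), neither of them past the threshold. With 1 library left out it ranged from -2.41 (without WT1) to -0.28 (without dyW1).

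These counts rest on few reads. *Pax7* had 0, 7, 6 and 12 reads in WT1 to WT4 and 0, 54 and 16 in dyW1 to dyW3, and *Pax3* had between 5 and 15 in WT. Per kb of exon, *Pax7* was at 0 to 1.09 times the median of 1330 odorant and vomeronasal receptor genes in the WT libraries, and *Pax3* at 0.43 to 1.52 times. Receptor genes are not known for a role in muscle fibers, so the WT levels of both progenitor factors were near the level of reads found on such genes. In dyW3, *Pax7* was at 1.97 and *Pax3* at 8.29 times the receptor median, but at 0.154 and 0.647 times the receptor mean, which was 17.7 reads per kb against a median of 1.38. In dyW1 and dyW2 the median was 0, and relative to the mean *Pax3* was at 10.7 times in dyW1 and 0 in dyW2, and *Pax7* at 0 in dyW1 and 8.22 times in dyW2. The receptor mean was 2.54 and 1.12 reads per kb in dyW1 and dyW2, against 1.16 to 2.78 in WT. It did not follow the greater depth of these libraries, so ratios to receptor genes are not comparable between the groups.

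Among the MRFs, *Myf5* had the most positive log2 fold change. It was at 0, 18.9, 16.4 and 34.6 normalized counts in WT1 to WT4 and at 12.2, 79.7 and 107.9 in dyW1 to dyW3. The dyW2 and dyW3 values were above every WT value, while dyW1 fell within the WT range, so the groups overlapped. The log2 fold change was 2.21 (SE 1.33, 95% interval -0.81 to 5.23, adjusted P-value 0.234). Without WT1 and dyW1 the means were 23.3 ± 9.87 (SD, n = 3) and 93.8 ± 19.97 (SD, n = 2) normalized counts, with a log2 fold change of 2.02 (SE 0.67, adjusted P-value 0.0695 in limma). Without dyW3 it was 1.63 (SE 1.44, adjusted P-value 0.379). The direction of *Myf5* was positive in every alternative in which it was tested, between 1.08 and 3.40 on the log2 scale. It was never called, but several of these fits called 0 genes of the whole table.

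*Myod1* had reads in 4 of the 7 libraries. It was at 0, 21.6, 41.0 and 15.7 normalized counts in WT1 to WT4 and at 0, 62.2 and 0 in dyW1 to dyW3. The only dyW library with reads, dyW2, was above all WT libraries, and the 0 of dyW3 allows up to 1.47 normalized counts, below the 3 WT libraries with reads. The group means, 19.6 ± 17.0 (SD, n = 4) and 20.7 ± 35.9 (SD, n = 3), were separated by far less than the spread between libraries. On the log2 scale, where the libraries at 0 weigh more, the fold change was negative (-1.49, SE 1.76, adjusted P-value 0.544 in limma), and it moved to -0.50 without dyW1 or dyW3 and to -3.49 without dyW2.

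*Myog* was the most abundant MRF in most libraries. It was at 10.7, 229, 265 and 113 normalized counts in WT1 to WT4 and at 0, 219 and 342 in dyW1 to dyW3. The low values were again those of WT1 and dyW1, and dyW2 and dyW3 were within or above the range of the other WT libraries. The log2 fold change was -1.17 (SE 2.01, adjusted P-value 0.685) with all libraries and turned to 0.52 (SE 0.60, 95% interval -0.96 to 2.002) without WT1 and dyW1. *Myog* is also overlapped by *Gm32221* on the opposite strand, and with no strand setting stated, reads of the 2 cannot be told apart.

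*Myf6* was at 0, 32.4, 41.0 and 6.29 normalized counts in WT1 to WT4 and at 0, 258 and 9.77 in dyW1 to dyW3. A single library, dyW2, was far above the others, and the remaining dyW libraries lay within the WT range. The log2 fold change was 0.49 (SE 1.94, adjusted P-value 0.867) and turned to -1.62 when dyW2 was left out.

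The share of each MRF among the reads of all 4 differed between libraries. *Myog* took 75.9% in WT2 (95% exact Clopper-Pearson interval 66.9 to 83.5), 72.9% in WT3 (65.7 to 79.3) and 66.7% in WT4 (52.5 to 78.9). It took 74.4% in dyW3 (71.5 to 77.2), close to these, but 35.3% in dyW2 (34.0 to 36.7), where *Myf6* took 41.7%. The interval of dyW2 lies below those of the 3 WT libraries, but shares were not tested between groups. These intervals count amplified copies as separate reads and leave out the spread between fetuses, so they are too narrow for such a comparison. In dyW1 all 125 MRF reads were on *Myf5* (100%, interval 97.1 to 100), and WT1 held 2 MRF reads in all, both on *Myog*. *Myod1* took 7.14% in WT2, 11.3% in WT3, 9.26% in WT4 and 10.1% in dyW2, with 0 of 942 reads in dyW3, an interval that ends at 0.391%.

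**Figure D4:**
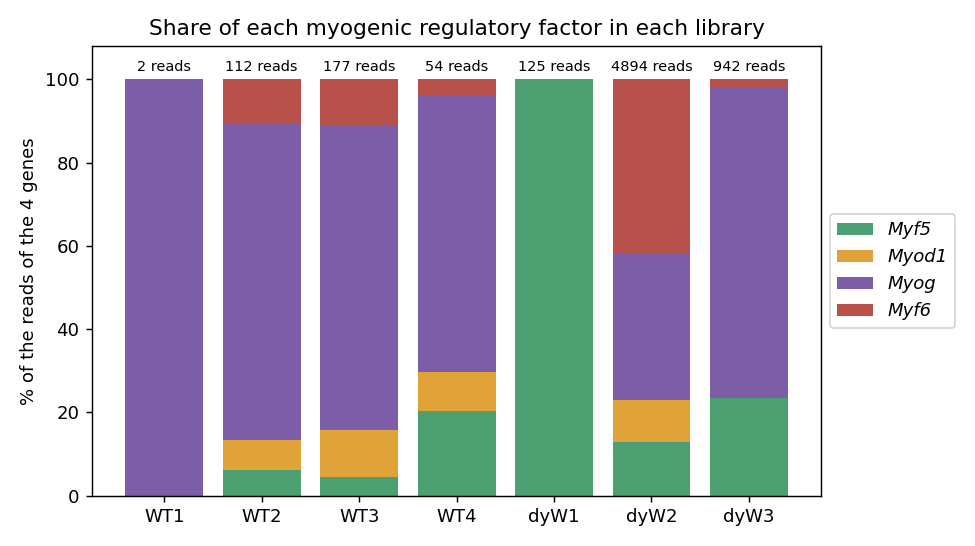
Share of *Myf5*, *Myod1*, *Myog* and *Myf6* among the reads of the 4 genes, with 1 stacked bar per library and its number of reads above it. *Myog* is the largest part in WT2, WT3, WT4 and dyW3, *Myf6* in dyW2 and *Myf5* in dyW1, and the bar of WT1 rests on 2 reads.

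The log2 ratio of *Myog* to *Myod1* sets the differentiation factor against a determination factor within a library. Among libraries with reads of both genes it was 3.35, 2.66 and 2.77 in WT2 to WT4 and 1.80 in dyW2, so dyW2 lay below these 3. WT1 and dyW3 had no read of *Myod1* and dyW1 none of either gene, so that their ratios are fixed by the added count of 1, and no group comparison is drawn from them.

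*Mef2a* was high in the same 2 libraries, and *Mef2c* in dyW1. *Mef2a* was at 1311, 138, 125 and 173 normalized counts in WT1 to WT4 and at 927, 138 and 155 in dyW1 to dyW3. WT1 and dyW1, which had the highest normalized sums of cartilage and bone markers, respectively, and the lowest of myofiber markers, were the high ones, and the other 5 differed little, with means of 145 ± 24.9 (SD, n = 3) and 147 ± 11.9 (SD, n = 2). The part of those tissues in the high values was not tested. The log2 fold change was 0.12 (SE 1.003) with all libraries and 0.03 (SE 0.51, 95% interval -1.22 to 1.28) without WT1 and dyW1. *Mef2c*, which is also active in cartilage and bone, was at 69.3, 167, 222 and 126 normalized counts in WT1 to WT4 and at 926, 208 and 135 in dyW1 to dyW3. Only dyW1 was high, and WT1 was the lowest library. Its log2 fold change was 1.14 (SE 0.76, adjusted P-value 0.283) with all libraries and 0.01 (SE 0.55, 95% interval -1.35 to 1.36) without WT1 and dyW1. The log2 ratio of *Mef2c* to *Mef2a* was -4.22, 0.28, 0.82 and -0.46 in WT1 to WT4 and 0.00, 0.58 and -0.20 in dyW1 to dyW3, with WT1 alone far below the rest (exact two-sided permutation test, P = 0.686). Both genes are overlapped by other annotated genes (3 for *Mef2a*, 2 for *Mef2c*), which leaves part of their reads uncertain.

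*Msc* had the most negative log2 fold change of the set. It was at 5.33, 59.3, 65.6 and 34.6 normalized counts in WT1 to WT4 and at 0, 5.56 and 0 in dyW1 to dyW3. All dyW libraries lay below WT2, WT3 and WT4, and the only overlap was of dyW2 with WT1, whose value rests on 1 read. The 5.56 normalized counts of dyW2 (44 reads) and the limits of 0.292 and 1.47 normalized counts that 0 reads allow in dyW1 and dyW3 were below the WT mean of 41.2 ± 27.4 (SD, n = 4). The log2 fold change was -4.04 (SE 1.10, 95% interval -6.54 to -1.54, adjusted P-value 0.0216) with all libraries and -4.35 (SE 1.03, adjusted P-value 0.0254) without WT1 and dyW1, and -3.59 (SE 1.15, adjusted P-value 0.0346) without dyW3. It was negative in every alternative in which it was tested (-6.25 to -1.87), and its adjusted P-value ranged from 0.0120 to 0.484, the highest with quantile normalization. The looser call was kept in 3 of the 7 fits with 1 library left out, and lost without WT2 (adjusted P-value 0.0805), WT3 (0.0613), WT4 (0.0738) or dyW1 (0.0564) and with libraries scaled to the same total (0.0507). The zeros of dyW1 and dyW3 stand beside the smaller number of genes with a read in all dyW libraries, and the part of this in the result was not tested. For the normalized counts of *Msc*, P was 0.114 in the exact two-sided permutation test. The gene (chr1:14823503-14826266, minus strand, GRCm39) is overlapped by *Gm9947* on the plus strand.

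*Cdh15* was at 10.7, 40.5, 38.97 and 56.6 normalized counts in WT1 to WT4 and at 10.9, 51.5 and 0.488 in dyW1 to dyW3. The groups overlapped fully but for dyW3, where the value rests on 1 read, whereas dyW2 had 407 reads. Its log2 fold change was -1.73 (SE 1.20, adjusted P-value 0.298), and it moved to -0.38 without dyW3, to -2.95 without dyW2 and to 0.038 with voom.

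Compared between genes per kb of exon, *Myog* had the highest median level in both groups, 113 normalized counts per kb in WT (7.03 to 175) and 144 in dyW (0 to 226). In WT it was followed by *Msc* with a median of 17.6 (2.002 to 24.6) and *Myf6* with 13.7 (0 to 29.0), then by *Mef2a* (10.02), *Myod1* (9.86), *Mef2c* (8.55), *Myf5* (8.47) and *Cdh15* (7.66), and last by *Pax3* (3.86) and *Pax7* (2.66). The ranges of neighbours in this order overlapped throughout. In dyW, *Myf5* was second with a median of 38.3 per kb (5.85 to 51.8), and *Myod1* and *Msc* had medians of 0. Relative to the receptor genes, *Myog* was above 2 times their median in 4 of 4 WT libraries (2.06 to 47.8 times) and *Msc* in 3 of 4 (0.59 to 6.76 times), and in dyW3 *Myog* reached 334 times and *Myf5* 76.6 times. Relative to the receptor mean, *Myog* was at 1.14 to 40.3 times in WT and at 0, 1018 and 26.1 times in dyW1 to dyW3. *Myf5* was at 0 to 2.46 times the receptor mean in WT and at 23.6, 269.9 and 5.98 times in dyW1 to dyW3. The receptor level did not follow depth in dyW1 and dyW2 (above), so these ratios are not comparable between the groups.

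A ratio to the myofiber markers of the same library does not depend on how libraries were scaled. In dyW1, however, 90.3% of the marker reads were on *Tpm1*, a tropomyosin gene that other cell types also use, against 2.46% to 11.01% elsewhere, so the dyW1 values are not levels per myofiber. *Myf5* had 0, 0.797, 0.194 and 1.89 reads per 1000 myofiber-marker reads in WT1 to WT4 and 11.04, 6.01 and 13.7 in dyW1 to dyW3. Every dyW library was above every WT library, also above the 5.29 that the 0 reads of WT1 allow. The difference on the log2 scale (reads + 1) was 3.40, or 2.18 when the 2 most abundant markers were left out of the denominator, where the 0 reads of WT1 allow 17.3 per 1000 and so do not set it below the dyW libraries. With all 18 markers, the exact two-sided permutation test gave P = 0.0571, the smallest it can give. *Msc* had 1.76, 2.51, 0.777 and 1.89 reads per 1000 in WT1 to WT4 and 0, 0.419 and 0 in dyW1 to dyW3. Here every dyW library was below every WT library, with a difference of -3.89 and the same P = 0.0571 (exact two-sided permutation test). These were the only 2 of the 10 genes whose groups did not overlap in this ratio, 1 in each direction, against 14.9% of all genes lower and 3.14% higher. Without dyW1 the groups still did not overlap, with differences of 3.30 for *Myf5* and -3.60 for *Msc* (exact permutation P = 0.133 for both, the smallest possible with 4 libraries against 2). *Myog* was then higher without overlap too, with a difference of 2.24, and the shares of all genes were 26.9% lower and 3.56% higher. Without dyW3 the groups of *Myf5* and *Msc* did not overlap either, with differences of 3.15 and -3.34, against 26.5% of all genes lower and 5.61% higher. Further genes did not overlap when another library was left out. Without WT1 *Mef2a* (3.66) and *Mef2c* (3.58) were also higher, and without dyW2 *Myod1* (-3.74) was also lower. The shares of all genes were not counted for these. Over all genes tested the median difference in this ratio was -1.65. The myofiber markers themselves spanned 567 to 41179 reads in WT and 11323 to 104908 in dyW.

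**Figure D5:**
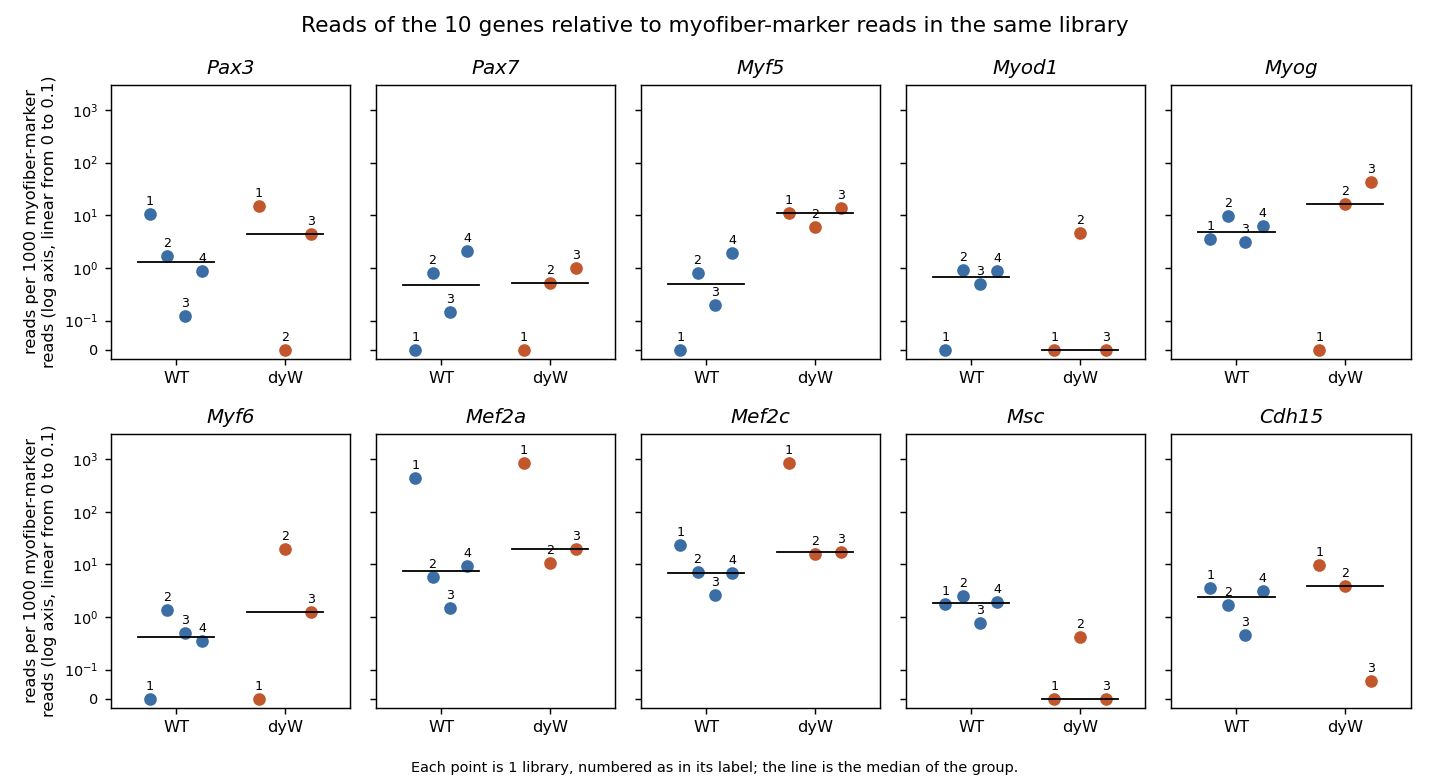
Reads of each gene per 1000 reads of the 18 myofiber markers in the same library, for 4 WT (blue) and 3 dyW (orange) libraries with group medians as lines, on an axis that is logarithmic above 0.1. The dyW points of *Myf5* (6.01 to 13.7) lie above all WT points, those of *Msc* (0 to 0.419) lie below, and *Mef2a* is highest in WT1 and dyW1.

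Without WT1 and dyW1, *Myog*, *Mef2a*, *Mef2c* and *Myf5* were higher relative to myofiber markers without overlap and *Msc* was lower, against 16.9% of all genes higher and 26.9% lower. *Myog* then had 9.68, 3.13 and 6.17 reads per 1000 in WT2 to WT4 and 16.5 and 43.4 in dyW2 and dyW3, a log2 difference of 2.20. *Mef2a* differed by 1.70 and *Mef2c* by 1.68 on the same scale. For all of them the exact two-sided permutation test gave P = 0.200, the smallest possible with 3 libraries against 2, so none could pass a threshold. The same 2 genes have nearly equal normalized counts in these 5 libraries (above), and the myofiber sums that form the denominator were 18357 to 84470 normalized counts in WT and 7889 and 13268 in dyW.

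Genes that act around the 10 members were read from 5 lists, of which 101 genes were tested. Of these, 6 were called lower and 1 higher, and the background of called genes was 18.7% lower and 0.0659% higher. At an unadjusted P-value under 0.05, 22 of the 101 were lower and 7 higher, against 41.5% and 2.81% of all genes. The median log2 fold change of the 101 genes was -1.12, beside the -1.99 of all genes. Without WT1 and dyW1 limma called 0 genes of the whole table (38.9% were lower and 2.75% higher at an unadjusted P-value under 0.05), so each call below was lost. The calls were also lost without WT2, WT4 or dyW2, each of which left 0 genes of the table called. Without dyW1 the lists held 2 called lower, against 2090 of 26945 genes in the whole table. Without dyW3 they held 10, against 6698 of 25971.

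Among 21 upstream regulators of myogenesis, 3 were called lower and 0 higher. *Eya2*, a transcriptional cofactor, was at 10.7, 35.1, 10.3 and 22.0 normalized counts in WT1 to WT4 and had no read in any dyW library (log2 fold change -4.18, adjusted P-value 0.00388). *Pitx3*, a homeobox factor of differentiating muscle, ranged from 6.29 to 37.3 normalized counts in WT (adjusted P-value 0.00485), and *Tbx1*, a T-box factor known from branchial muscle, from 5.33 to 18.9 (adjusted P-value 0.00568), and both likewise had no read in dyW. All 3 are genes of few reads in WT, at most 13 in a library, and the dyW libraries had reads on fewer genes in general, whose part in these zeros was not tested. The calls were kept in 6 of 16 alternatives for *Eya2* and *Pitx3* and in 5 of 15 for *Tbx1*, whose log2 fold change was -0.04 with quantile normalization.

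Among 24 E proteins, Id proteins and co-regulators, 0 were called lower and 1 higher. *Tcf12*, an E protein that pairs with the MRFs at E-boxes, was at 107, 175, 131 and 116 normalized counts in WT1 to WT4 and at 458, 548 and 1053 in dyW1 to dyW3. Every dyW library was above every WT library (log2 fold change 2.29, SE 0.51, adjusted P-value 0.00872). *Tcf12* is among the 6111 genes with a mean of at least 50, of which 717 were higher and 536 lower at an unadjusted P-value under 0.05. Tested over these genes alone, its adjusted P-value in limma was 0.0998. The call of *Tcf12* was kept in 2 of 17 alternatives, with a positive value between 1.52 and 3.46 in all of them, and it was lost without any one of WT1, WT2, WT3, WT4, dyW1, dyW2 or dyW3.

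Of 28 fusion genes and MRF or MEF2 targets, 3 were called lower and 0 higher, and 24 had a negative log2 fold change, with a median of -1.84 beside the -1.99 of all genes. This order depended on the setting, with medians of -3.02 and -1.70 by voom, -0.80 and 0.06 with quantile normalization, and -0.76 and -2.04 without WT1 and dyW1. *Chrng*, the fetal γ subunit of the muscle acetylcholine receptor, ranged from 10.7 to 69.2 normalized counts in WT and was at 2.14, 0 and 0 in dyW1 to dyW3 (log2 fold change -4.43, adjusted P-value 0.00559). *Nphs1*, which encodes nephrin, a surface protein of fusing myoblasts, was at 16.4 to 58.6 in WT and at 0.974, 0 and 3.91 in dyW (adjusted P-value 0.00608). *Xirp1*, which encodes an actin-binding protein of muscle attachment sites, was at 4.10 to 34.6 in WT and at 0, 0.126 and 0 in dyW (adjusted P-value 0.00572). The calls were kept in 5 of 16 alternatives for *Chrng* and *Xirp1* and in 3 of 16 for *Nphs1*, which had an adjusted P-value of 0.229 with voom.

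In the remaining lists no gene was called by limma or by voom. Of 25 progenitor surface and Notch-pathway genes, 3 were lower and 2 higher at an unadjusted P-value under 0.05 (41.5% and 2.81% of all genes), with a median log2 fold change of -0.26, and of 3 MRF and MEF2 relatives 0 were, with a median of -1.25. With the libraries scaled to the same total, 0 genes of the whole table were called, and so 0 of any list. Of the list genes, 11 were lower and 16 higher at an unadjusted P-value under 0.05, against 30.1% and 9.65% of all genes. The median of the progenitor surface and Notch-pathway genes then turned to 0.87, beside the -1.24 of all genes.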

How the data were processed

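RNA of muscle fibers from 4 WT and 3 dyW fetuses was sequenced as SMART-seq2 libraries with Nextera XT tags, and groups were taken from the genotypes in the sample labels. After trimming (Cutadapt) and alignment to GRCm39 (RNA STAR), the authors counted uniquely mapped reads per gene with FeatureCounts and deposited normalized counts (reads divided by 1 size factor per library, from DESeq2). Tool versions, the annotation and the strand setting are not given in the sources used here. A deposited table of the authors' own comparison (fold changes and P-values) was not used.

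Values of a library are whole multiples of 1 step, which gave back the reads, and 100% of values below 200 reads were whole within 0.01. Groups were compared on log2(normalized count + 1) by lmFit and eBayes (trend) of limma 3.58.1, R 4.3.3, with Benjamini-Hochberg adjustment, over the 25791 genes with a mean of at least 5. The deposited values are normalized, so the main test was on the log scale, and limma voom on the recovered reads stood in for count models, which were not run. For single values, two-sided exact permutation tests used all 35 assignments of libraries to groups (10 without WT1 and dyW1). Coordinates and exon lengths came from GENCODE mouse release 39, which matched 99.2% of the identifiers, and promoter sequences from RefSeq (GRCm38.p6), each found once and unchanged in GRCm39. Tested on simulated data over 25405 genes for the same groups of libraries, the fit recovered 190 of 200 genes changed 16-fold and called 0 unchanged genes. The changed genes were drawn from those with a mean of at least 50, and 1 fixed spread was used for all genes. Of the members only *Myog*, *Mef2a* and *Mef2c* reach that mean, so the simulation does not give the recovery of the others. Tables and figures were made in Python 3.11.15 with scipy 1.17.1, pandas 2.3.3, numpy 2.4.6 and matplotlib 3.10.9.

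The 10 genes, the gene lists and the tests were chosen with earlier results of these data known, and the list of bone genes, voom, the fits without WT1 and dyW1 and all alternatives for the lists were added later. The genes named are the 10 members, *Lama2* and called genes of the 5 pathway lists (with none called, up to 2 genes at an adjusted P-value under 0.05), while marker lists are given as sums. *Col2a1*, *Spp1*, *Acta1*, *Ckm*, *Des*, *Myh3*, *Tpm1* and the single fibroblast markers of dyW1 were named after their values were seen. Reads counted on genes per library ranged from 470804 to 18297106, and a count of 0 was taken to allow up to 3 reads. Where fetuses are the replicates, P-values reflect the spread between 4 and 3 fetuses.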

Additional observations from a re-analysis of the deposited data

Results flagged for a closer look

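*Mef2a* in WT1 stood apart from the other WT libraries. It was at 1311 normalized counts there against 125 to 173 in WT2, WT3 and WT4, a gap of 0.960 of the range of the group. Of 22 sets of 4 WT values examined in this way (counts, levels relative to myofiber markers and ratios) this was the only 1 with a library so far from the rest, and about 1 in 20 would be so by chance. WT1 also held 426120 normalized counts of cartilage markers, and their part in the *Mef2a* value was not tested.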

How the results depend on the processing

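No member was called under any alternative fit (no filter or a minimum mean of 50, pseudocounts of 0.1 and 10, scaling to the same total, quantile normalization, the replicate block, voom, or leaving out libraries), and 1 was called lower at the looser threshold of 0.05 with a log2 fold change beyond 1. Several of these fits could not call a member, because they called 0 genes of the whole table. These had a pseudocount of 10, a minimum mean of 50, the same total or the replicate block. The same held without WT1 and dyW1, and without WT2, WT4 or dyW2. Quantile normalization called 2 of 25791 genes lower and 0 higher. The remaining fits called between 2090 (without dyW1) and 6698 (without dyW3) genes lower. At a mean of at least 50 *Msc* and other low members were not tested. The planned edgeR and DESeq2 fits on the recovered reads were not run, and voom on the same reads took their place. Members whose groups did not overlap numbered 2 when libraries were scaled to the same total (*Myf5* and *Mef2c*, higher, against 9.08% of all genes), 1 with quantile normalization (*Myf5*, higher, against 6.21%) and 3 without WT1 and dyW1, and between 0 and 2 with 1 library left out (*Msc* and *Pax7* lower without WT1, against 36.6%; *Myf5* higher without dyW1, against 6.32%; *Msc* lower without dyW2, against 35.2%). The cause of these changes was not tested.

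Of 163 alternative log2 fold changes of members, 16 changed sign. Quantile normalization gave *Pax3* 0.57, *Pax7* 0.61, *Myod1* 0.40 and *Mef2a* -0.62, voom gave *Cdh15* 0.038, and leaving out WT1 and dyW1 gave *Myog* 0.52. With 1 library left out *Pax3* ranged from -2.43 to 0.15 (positive without dyW2), *Myog* from -2.68 to 1.53 (positive without dyW1), *Myf6* from -1.62 to 2.39 (negative without WT1 or dyW2) and *Mef2a* from -0.77 to 0.91 (negative without dyW1, WT2, WT3 or WT4). Relative to myofiber markers, *Myf6* turned to -0.23 over all reads and to -0.69 without the 2 most abundant markers, and *Pax7* to 0.082 and *Myog* to 2.20 without WT1 and dyW1. With 1 library left out this level ranged from -2.72 to 2.59 for *Pax3* (positive without WT1 or dyW2), from -2.23 to 2.24 for *Myog* (positive without dyW1), from -1.42 to 2.47 for *Myf6* (negative without dyW2) and from -1.51 to 1.66 for *Cdh15* (positive without WT1, WT4 or dyW3). The ratio of *Myog* to *Myod1* ranged from -2.18 to 2.03 with 1 library left out (negative without dyW3; the added count sets its value in WT1, dyW1 and dyW3), and that of *Mef2c* to *Mef2a* from -0.086 to 1.59 (negative without WT1) and was -0.022 without WT1 and dyW1.

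Pathway genes called lower numbered 0 with a pseudocount of 10, a mean of at least 50, the same total, quantile normalization, the replicate block, the same 6 libraries without it, or WT1 and dyW1 left out, and between 0 and 10 with 1 library left out (0 without WT2, WT4 or dyW2, 2 without dyW1). The fits with 0 called 0 genes of the whole table, but for quantile normalization with 2 lower. In the whole table, genes called lower numbered 2090 of 26945 without dyW1 and 6698 of 25971 without dyW3. They numbered 4606 of 24804 without WT1 and 5243 of 25723 without WT3. Pathway genes called higher numbered 2 with a pseudocount of 0.1 or voom (against 41 and 68 of 25791 genes), 0 with the other alternatives and 0 or 1 with 1 library left out.

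Replicate numbers 1 to 3 occur in both groups. Deviations of same-numbered libraries correlated at 0.147, -0.049 and -0.088, and the highest value was 0.225 for WT3 with dyW2. These values give no sign that the numbers pair the fetuses, but cannot exclude it. With the replicate block 0 genes of the whole table were called, and so 0 members. There *Mef2a* was -0.060 (as in the same 6 libraries without the block) and *Msc* -3.97 (adjusted P-value 0.0805 in limma, 0.0738 without the block). The low WT depth limits the rarer genes most, since 1 read of WT1 is worth 5.33 normalized counts.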
